A study of Mus musculus with 4 samples.

Results

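Muscle overload was compared with sham surgery in the epididymal fat of male mice that received the vehicle DMSO. The comparison rests on 2 of the 4 arrays of the series, the vehicle overload array (Veh-SA) and the vehicle sham array (Veh-Sham), and each gene is described by the log2 value of the first minus that of the second. Genes were represented by 1 annotated probe set each, the one with the highest mean over the arrays, which gave 19505 genes. Genes whose mean over the arrays fell under a floor of log2 4.67, the 40th percentile of all such means, were set aside, which left 11703, and counts over genes refer to these. The other 2 arrays hold fat after injection of GW4869, a drug described in the labels as an inhibitor of extracellular vesicles, with sham surgery (GW-Sham) or overload (GW-SA). Overload means synergist ablation, in which the muscles that share a task are removed so that the remaining muscle carries their load. The sources used here do not give strain, age, dose, time after surgery or the number of mice behind an array. Every group is 1 array, so no difference has a replicate check, no p-value was computed, and every count describes 2 arrays and not 2 conditions.

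Epididymal fat is a white depot that lies against the testis and epididymis. Its adipocytes store triglyceride and release fatty acids by lipolysis, a cascade in which cAMP activates protein kinase A and the lipases Pnpla2 and Lipe act on the lipid droplet. Insulin and a group of receptors coupled to inhibitory G proteins restrain that cascade. Adipocyte mitochondria also break down fatty acids and the branched-chain amino acids leucine, isoleucine and valine, and feed the products into the citric acid cycle and the respiratory chain. The series title concerns vesicles from overloaded muscle and lipolysis, so the comparison asks how fat gene programmes differ after overload when vesicle release is not blocked.

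The tissue label was checked against marker lists. All 19 measured mature adipocyte genes lay above the floor on all arrays, with median levels of 16.63 and 16.81 on the sham and overload arrays of vehicle and 17.13 and 15.86 on those of GW4869. The vehicle sham array stood apart through transcripts of the testis. There the median level over all 20 measured spermatid genes was 13.90, and it lay under the floor on each of the other 3 arrays. On vehicle overload the medians over all measured members of the spermatid, proximal epididymis, distal epididymis and seminal vesicle lists (3.63, 3.39, 3.74 and 4.26) all lay under the floor. The GW4869 arrays held other tract transcripts. The distal epididymis median was 9.18 on GW4869 sham. On GW4869 overload the proximal epididymis and seminal vesicle medians were 13.04 and 7.49. The tract genes are therefore described apart from the fat genes. For the main fat programmes vehicle overload is also set against the 2 GW4869 arrays, with the vehicle sham array left out. That comparison is not free of tract tissue either. A reading below log2 6.40, the highest 95th percentile of antigenomic background probes on any array, may be background.

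Over all genes, 3537 of 11703 (30.2%) were at least 1.5-fold higher on vehicle overload than on vehicle sham, and 1972 (16.9%) were at least 1.5-fold lower. The median gene differed by 0.26 on the log2 scale. Higher genes differed modestly and lower genes by much more: 62 genes were higher by at least 2 log2 units and 839 lower. The split depends on the scaling of the arrays. Of the genes past 1.5-fold, 64.2% were higher as deposited, 83.6% with arrays centred on the median of all genes, 50.7% with arrays centred on the mature adipocyte list and 39.6% after removal of a trend with level. The median gene under the last 3 settings was 0.73, 0.08 and -0.035. At a 2-fold limit the counts were 1394 higher and 1390 lower, or 50.1% higher.

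**Figure D1:**
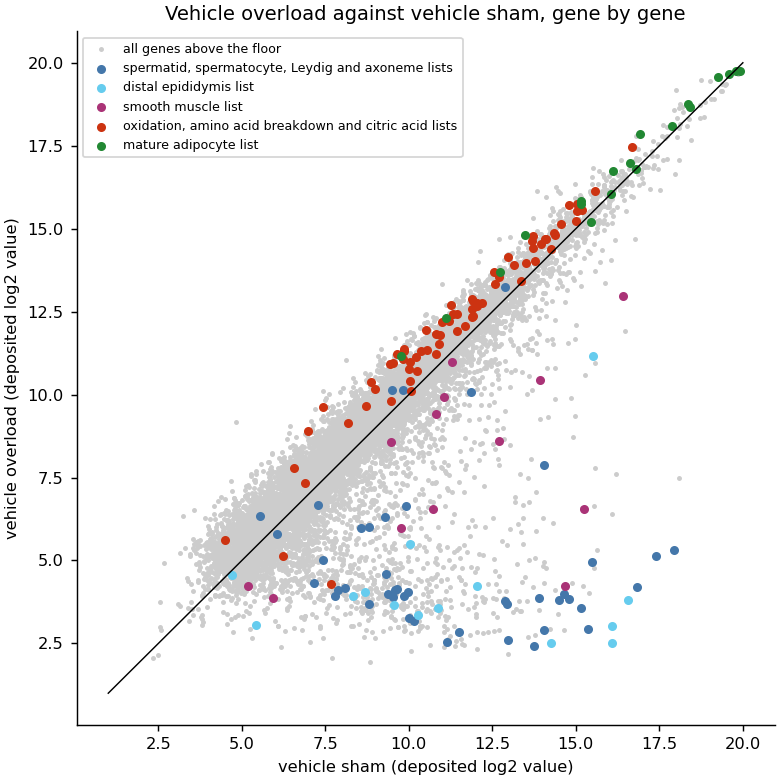
Each point is 1 gene above the floor, with its deposited log2 value on the vehicle sham array (horizontal) and on the vehicle overload array (vertical); the diagonal marks equal values and colours mark lists. Most of the tract genes that passed the floor, many of them through the vehicle sham array, lie far below the diagonal, whereas the oxidation, amino acid breakdown and citric acid cycle genes lie mostly above it, with list medians of 0.84, 0.91 and 0.58.

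A difference between 2 arrays can come from either of them, so the place of each vehicle array among the 4 was recorded. Over all genes, vehicle overload was the highest array for 3518 (30.1%) and the lowest for 2207 (18.9%). Vehicle sham was the lowest for 5369 (45.9%) and the highest for 2318 (19.8%). Of the 3537 genes higher on overload, vehicle sham was the lowest array for 2900 and vehicle overload the highest for 2176, with 1615 in both counts. Of the 1972 lower genes, vehicle sham was the highest array for 1534. The lists fell into groups by this measure: genes of mitochondrial fuel use were mostly highest on vehicle overload, and genes of macrophages, lysosomes and interferon response were mostly lowest on vehicle sham.

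**Figure D2:**
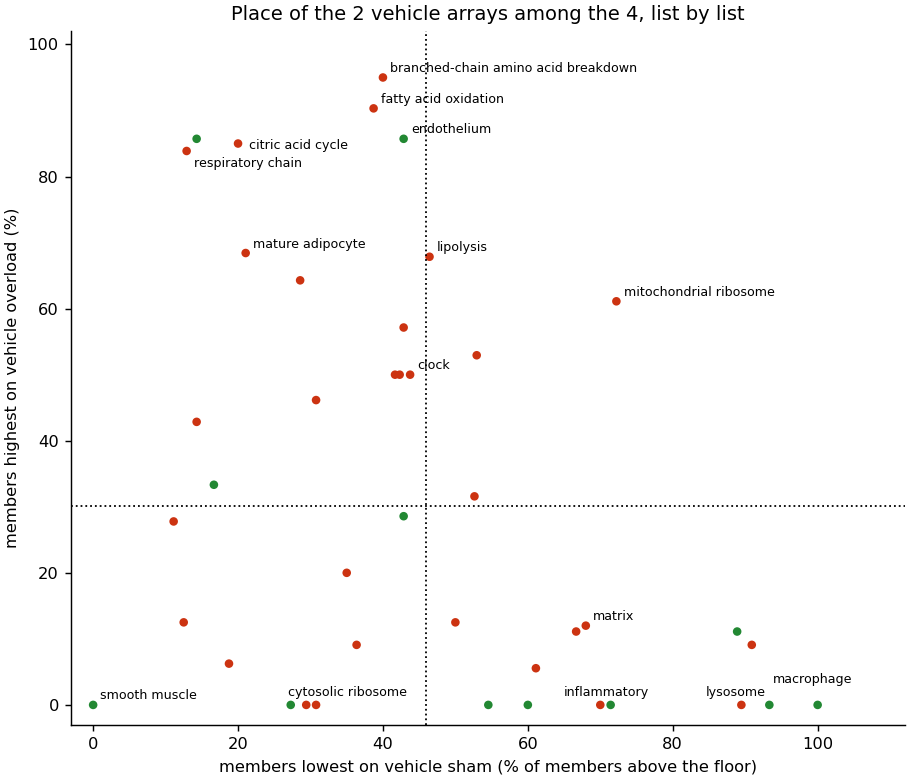
Each point is a list with at least 5 members above the floor outside the reproductive tract (red, programmes; green, cell types), placed by the percentage of its members that are lowest on vehicle sham (horizontal) and highest on vehicle overload (vertical). Dotted lines mark the same percentages over all genes, 45.9% and 30.1%; branched-chain amino acid breakdown has 19 of 20 members highest on vehicle overload, and macrophage genes have 0 of 15.

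Genes for the breakdown of branched-chain amino acids were higher on vehicle overload with few exceptions. Of 20 members above the floor, 16 were at least 1.5-fold higher, 0 were lower and 4 lay between, with a median difference of 0.91. Vehicle overload was the highest array for 19 of them, and 8 stood at least 1.5-fold above each other array there, against 541 of all genes (4.62%). Levels of a gene are given as 4 log2 values, the vehicle pair before the GW4869 pair and, within a pair, sham before overload. Ppm1k, the phosphatase that switches on the branched-chain ketoacid dehydrogenase, read 7.43, 9.64, 8.86 and 8.97. Bckdha, a subunit of that dehydrogenase, read 9.65, 11.21, 10.78 and 9.86. Both were highest on vehicle overload and lowest on vehicle sham, with differences of 2.21 and 1.56.

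Other steps of the route were arranged alike. Bcat2, the mitochondrial transaminase that starts it, read 10.52, 11.94, 11.35 and 10.38, and Mccc1, a subunit of the leucine-specific carboxylase, read 11.27, 12.71, 12.03 and 11.06. In these genes the 2 lowest arrays were vehicle sham and GW4869 overload. Hibch of the valine branch differed by 1.49, and Mccc2 and Pccb, carboxylase subunits, by 1.11 and 1.01. The exception in place was Bckdk, the kinase that switches the dehydrogenase off, at 10.04, 10.40, 10.52 and 10.20, where GW4869 sham was highest.

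Fatty acid oxidation genes had a median difference of 0.84, with 20 of 31 at least 1.5-fold higher and 1 lower. Vehicle overload was the highest array for 28 and stood at least 1.5-fold above each other array for 9. Among mitochondrial members, 9 of 18 were higher. Acadl, the long-chain acyl-CoA dehydrogenase, read 12.97, 14.13, 13.55 and 13.37, and Slc25a20, the carnitine carrier of the inner membrane, read 9.52, 10.97, 10.50 and 9.95. For both, vehicle overload was highest and vehicle sham lowest. Decr1, which processes unsaturated fatty acids, read 12.53, 13.69, 12.61 and 12.39, so vehicle overload alone stood apart. Cpt1a, the carnitine transferase of the outer membrane, differed by only 0.05. Cpt1b, its muscle isoform, was the 1 lower member, at 7.68 on vehicle sham and under the floor on the other arrays.

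Peroxisomal members were arranged likewise, with 6 of 8 higher and vehicle overload highest for 8 of 8. Pex11a, which acts in peroxisome division, read 9.84, 11.38, 10.31 and 9.41, and Ehhadh, the bifunctional enzyme, read 9.87, 11.32, 10.54 and 9.94. All 5 regulators in the list were higher. Ppargc1a, a coactivator of mitochondrial genes, read 6.98, 8.90, 6.90 and 7.74, with vehicle overload above the other 3 arrays. Ppargc1b differed by 1.23. Pdk4, which restrains glucose oxidation, was higher than sham by 0.95 but was highest on GW4869 sham, at 8.71, 9.65, 11.02 and 10.46. Ppara, the fatty acid sensing receptor, read 4.49, 5.62, 5.09 and 4.75, all within background. Over the family of acyl-CoA dehydrogenase symbols, assembled after values were seen, 7 of 10 were higher and vehicle overload was highest for 9.

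The citric acid cycle list had a median difference of 0.58, with 10 of 20 higher and 1 lower, and vehicle overload was highest for 17. Suclg2, a succinyl-CoA ligase subunit, read 8.87, 10.37, 9.49 and 8.96, and Sdha, the flavoprotein of succinate dehydrogenase, read 9.83, 11.07, 10.54 and 9.98. Pcx, which refills the cycle from pyruvate, read 13.71, 14.77, 14.35 and 12.79. All 3 were highest on vehicle overload. Sucla2 was the lower member, at 6.24, 5.15, 5.04 and 5.06, all within background.

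Respiratory chain genes differed less in size, with a median of 0.42. Of 31 members 10 were higher, close to the 30.2% of all genes, and 0 were lower. Vehicle overload was the highest array for 26 of 31, against 30.1% of all genes. All 15 complex I members had their highest value on vehicle overload, and 7 were at least 1.5-fold higher than sham. Ndufb3 read 10.20, 11.06, 10.60 and 10.13, and Ndufs4 read 10.23, 11.07, 10.53 and 10.08. Of 16 members from complexes III, IV and V, 3 were higher, among them Cyc1, cytochrome c1, at 7.29, 8.60, 7.99 and 7.70. Wider symbol families, assembled after values were seen, were less uniform. Of 46 Nduf genes, 18 were higher, 2 lower and 32 highest on vehicle overload, against 30.2%, 16.9% and 30.1% of all genes. Of 13 genes named Cox4 to Cox7, 1 was higher, 3 were lower and 4 were highest there; the difference between these families was not tested.

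**Figure D3:**
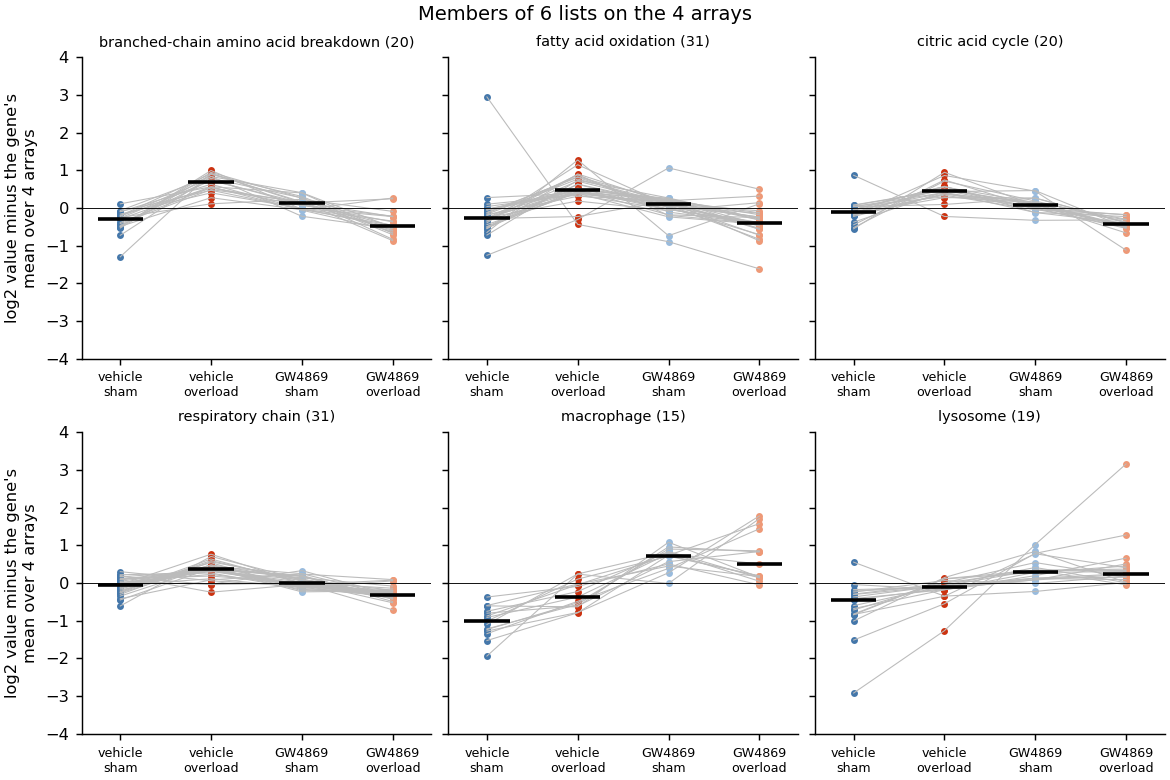
Each grey line is 1 gene of the named list, each point its log2 value minus its mean over the 4 arrays, and each black bar the list median on that array; numbers in brackets are members above the floor. In the first 4 lists vehicle overload is the highest array for 19 of 20, 28 of 31, 17 of 20 and 26 of 31 members, whereas vehicle sham is the lowest array for 14 of 15 macrophage and 17 of 19 lysosome genes.

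With the vehicle sham array left out, vehicle overload exceeded both GW4869 arrays for 19 of 20 amino acid breakdown, 29 of 31 oxidation, 18 of 20 citric acid cycle and 27 of 31 respiratory chain genes, against 36.9% of all genes. These counts rest on the scale. With arrays centred on mature adipocyte genes, vehicle overload was the highest of the 4 for 13 of 20, 12 of 31, 11 of 20 and 3 of 31 of them, against 694 of all 11703 genes. The median differences then were 0.74, 0.67, 0.41 and 0.24. Mature adipocyte genes themselves were highest on vehicle overload for 13 of 19 members. The parts of adipocyte RNA content and of tract tissue in these results were not tested. As deposited, vehicle overload exceeded both GW4869 arrays for 21 of 28 lipolysis, 10 of 14 triglyceride synthesis and 6 of 13 uptake genes. The counts were 13 of 26 for insulin and glucose, 5 of 18 for fatty acid synthesis and 6 of 14 for adipokines. They were 9 of 17 for adipocyte transcription regulators, 14 of 19 for mature adipocyte and 8 of 16 for clock genes.

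The 12 largest positive differences among genes above background on both vehicle arrays and outside the tract were Acsm3, Irs1, Tnfrsf14, Cyp2f2, Hcar2, Tst, Entpd2, Nabp1, Net1, Ppm1k, Dgat1 and Hcar1, between 2.18 and 2.95. Acsm3, a mitochondrial enzyme that activates medium-chain fatty acids, led with 8.11, 11.06, 9.21 and 9.24. Vehicle overload was the highest array for 11 of the 12, the exception being Cyp2f2, a cytochrome P450, at 7.60, 10.02, 10.66 and 8.19.

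Lipolysis genes had a median difference of 0.60, with 15 of 28 higher and 2 lower, and vehicle overload was highest for 19. The receptors held the largest values. Hcar1, the lactate receptor, read 12.13, 14.32, 13.06 and 13.01, and Hcar2, the receptor for niacin and ketone bodies, read 7.52, 9.91, 9.04 and 9.55. Both signal through an inhibitory G protein and lower cAMP in adipocytes. Ffar2, a short-chain fatty acid receptor, read 8.59, 10.04, 9.33 and 9.68. Of 6 receptors, 4 were higher and 1 was lower, Npr3, which clears natriuretic peptides, at 15.06, 14.47, 14.85 and 13.74. Ptger3, a prostaglandin receptor that restrains lipolysis, differed by 0.56, short of 1.5-fold. Of the higher receptors, Hcar1, Hcar2 and Ffar2 are named here. The remaining higher one is not described, so the named receptors do not stand for the whole group.

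Among the makers, effectors and breakers of cAMP, 8 of 12 were higher and 1 was lower. Pde3b, the phosphodiesterase through which insulin lowers cAMP, read 15.47, 16.55, 15.85 and 15.68. Prkar2b, a regulatory subunit of protein kinase A, read 15.69, 16.75, 15.83 and 15.41. Vehicle overload was again highest for both. Of the adenylyl cyclases, which make cAMP, Adcy3 was higher by 1.17 and Adcy5 by 0.74, and Adcy4 read 5.03 on vehicle sham, within background, and 6.61 on vehicle overload. Adcy9 read 4.36, under the floor, and 6.36 on the same arrays, both within background. Prkg1, the cGMP-dependent kinase, was lower, at 6.35, 4.72, 5.16 and 4.98, all within background.

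The lipases and droplet proteins differed less. Only 3 of 10 passed 1.5-fold. G0s2, the inhibitor of Pnpla2, read 11.32, 12.62, 11.14 and 10.85, so vehicle overload stood 1.31 above the nearest array. Lipe, hormone-sensitive lipase, read 16.94, 17.85, 17.42 and 17.06, and Plin1, the droplet coat protein that gates lipase access, read 15.15, 15.75, 15.19 and 14.81. Pnpla2, adipose triglyceride lipase, read 18.35, 18.77, 18.53 and 18.54 and its activator Abhd5 11.48, 11.41, 11.08 and 11.08, neither past 1.5-fold.

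Triglyceride synthesis genes were mixed, with 5 of 14 members higher and 3 lower and a median of 0.37, near the share of all genes that were higher. The higher members, Gpam, Gpat3, Dgat1, Mogat1 and Pck1, were also the 5 that stood at least 1.5-fold above each other array on vehicle overload. Dgat1, which adds the last fatty acid, read 9.18, 11.36, 10.37 and 10.35, and Gpam, which adds the first, read 14.12, 15.95, 15.09 and 15.04. Gpat3 differed by 1.35. Dgat2, the second enzyme of the last step, went the other way, at 16.45, 15.86, 16.54 and 14.45, and Agpat1 read 14.50, 13.45, 13.53 and 13.11, highest on vehicle sham. The uptake list had 5 of 13 members higher and 2 lower, against 30.2% and 16.9% of all genes. Its median was 0.32, against 0.26 over all genes. Slc27a1, a fatty acid transporter, held its largest positive difference, at 14.39, 16.26, 15.27 and 16.09. The lower members were Lmf1, at 10.08, 8.34, 9.31 and 8.26, and Acsl4, at 11.38, 9.86, 11.18 and 11.24.

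**Figure D4:**
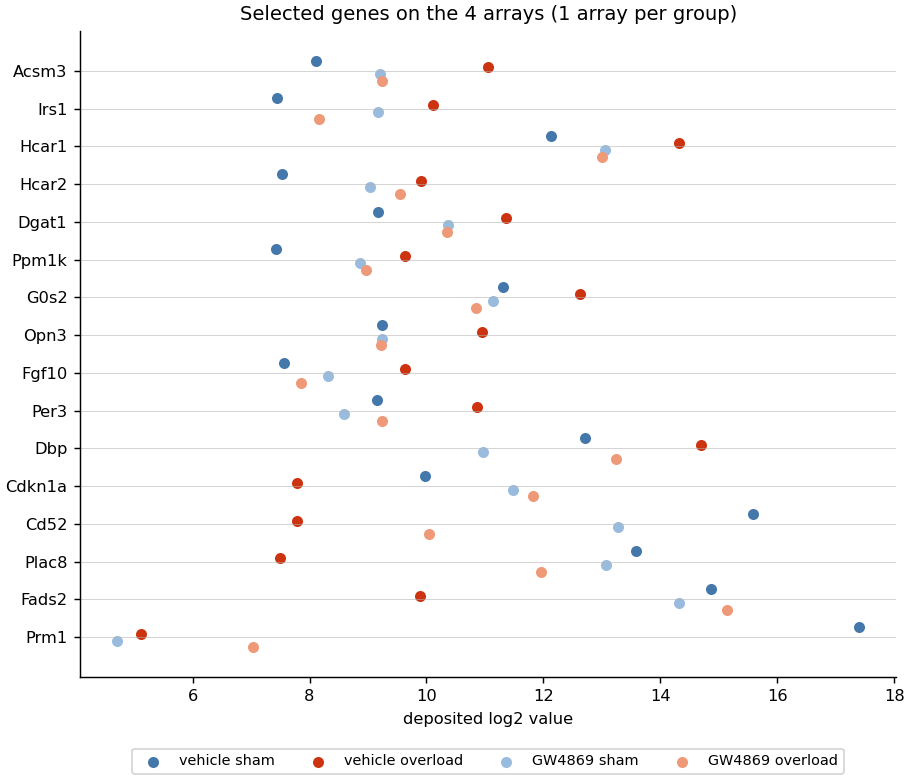
Deposited log2 values of 16 genes on the 4 arrays, 1 point per array. From Acsm3 to Dbp vehicle overload is the highest array, from Cdkn1a to Fads2 it is the lowest, and Prm1 is high on vehicle sham alone, at 17.40.

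Insulin and glucose genes had a median difference of 0.54, with 13 of 26 higher and 2 lower. The insulin signal accounted for 8 of them. Irs1, an insulin receptor substrate, read 7.44, 10.12, 9.18 and 8.16, and Pik3r1, the regulatory subunit of its kinase, 14.52, 16.07, 15.82 and 14.29. Tbc1d4, which regulates the movement of glucose transporters to the surface, read 11.30, 12.71, 12.36 and 11.74. Slc2a4, the insulin-responsive glucose transporter, read 9.77, 11.15, 10.63 and 9.74. In all 4 vehicle overload was highest and GW4869 sham second. The 2 lower members were Pdpk1, at 12.31, 10.97, 11.01 and 10.68, and Hk1, at 14.37, 9.87, 10.49 and 10.87, both highest on vehicle sham.

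Transcription regulators of adipocytes had 11 of 17 members higher and 1 lower, with a median of 0.96. Klf15 read 6.70, 8.29, 7.68 and 7.72, Nr3c1, the glucocorticoid receptor, 8.58, 10.11, 9.11 and 9.01, and Ebf2 9.19, 10.68, 9.77 and 9.27. Vehicle overload was highest for each of these. Pparg, the nuclear receptor of adipocyte differentiation, read 15.15, 15.85, 14.58 and 14.43, with both vehicle arrays above both GW4869 arrays. Cebpd differed by 1.22 but was highest on GW4869 overload, at 8.40, 9.62, 10.16 and 11.31. The lower member was Tfap2a, at 5.33, 4.28, 5.91 and 6.96, where both vehicle readings lie within background.

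In the mature adipocyte list 8 of 19 genes were higher and 0 lower, and the median was 0.35. Adipoq, which encodes adiponectin, read 19.59, 19.67, 19.58 and 19.34, and Lep, which encodes leptin, 15.45, 15.19, 15.75 and 14.28. Neither passed 1.5-fold, but Adipoq lies near the top of the scale, where the highest gene on vehicle overload reads 19.74, so a difference in it may not be measurable. Adipokines had 4 of 14 higher and 4 lower, against 30.2% and 16.9% of all genes. Nrg4 read 13.32, 14.61, 13.49 and 13.07 and Vegfa 12.13, 13.25, 12.01 and 12.90, while Bmp3 read 10.19, 8.71, 10.71 and 7.53. Of 14 thermogenic genes, 7 lay above the floor. Ucp1, the uncoupling protein, was under the floor on all 4 arrays, between 2.34 and 3.20.

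Fatty acid synthesis genes were mixed in direction. Their median was 0.13, against 0.26 over all genes. Of 18 members 5 were higher and 4 lower, against 30.2% and 16.9% of all genes. The largest negative differences were those of Fads2 and Elovl6, at -4.98 and -1.19, with vehicle overload the lowest array for both. Fasn read 15.93, 15.65, 16.22 and 12.58, and Acaca, the cytosolic acetyl-CoA carboxylase, 13.11, 13.14, 13.31 and 11.49. For both, the low array was GW4869 overload and the vehicle arrays differed by less than 1.5-fold. Acacb, the carboxylase whose product restrains Cpt1, read 7.09, 8.96, 7.80 and 6.86. Acly, which makes cytosolic acetyl-CoA, read 14.61, 13.65, 14.76 and 13.39. A group of 3 regulators of the route stood higher: Nr1h3 by 1.24, Mlxipl by 0.96 and Insig1 by 0.88.

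Clock genes had a median difference of 0.82, with 10 of 16 higher and 2 lower. The circadian clock is a loop in which Arntl and Clock switch on the repressors Per, Cry and Nr1d through E-box letters, and output factors such as Dbp act through D-box letters. To show what the annotation holds upstream of the members that differed, RefSeq letters of GRCm38.p6 are printed for Per3 (chr4:151044666-151044915, minus strand), Dbp (chr7:45704997-45705246, plus strand) and Bhlhe41 (chr6:145865421-145865670, minus strand). Each run is the 250 bases before the annotated start, 5′ to 3′, with capitals for a D-box (TTATGTAA) in Per3 and an E-box (CACGTG) in Bhlhe41. Bhlhe41 was chosen for its motif after values were seen.
Per3: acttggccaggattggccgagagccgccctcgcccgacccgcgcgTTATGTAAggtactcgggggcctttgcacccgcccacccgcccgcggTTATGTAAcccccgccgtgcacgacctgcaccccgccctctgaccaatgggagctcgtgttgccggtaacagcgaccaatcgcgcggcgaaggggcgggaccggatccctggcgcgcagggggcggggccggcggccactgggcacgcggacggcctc
Dbp: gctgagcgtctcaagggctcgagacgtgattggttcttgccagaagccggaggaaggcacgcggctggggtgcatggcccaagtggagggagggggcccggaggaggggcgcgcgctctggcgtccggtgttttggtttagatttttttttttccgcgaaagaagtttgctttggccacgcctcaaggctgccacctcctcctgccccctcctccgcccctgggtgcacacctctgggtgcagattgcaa
Bhlhe41: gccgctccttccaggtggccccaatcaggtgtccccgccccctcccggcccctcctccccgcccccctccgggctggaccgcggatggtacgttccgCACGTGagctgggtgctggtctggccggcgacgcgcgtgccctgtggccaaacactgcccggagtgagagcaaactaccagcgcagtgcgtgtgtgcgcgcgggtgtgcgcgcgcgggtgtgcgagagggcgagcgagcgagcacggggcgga

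In Per3 the D-boxes lie 205 to 198 and 158 to 151 bases before the start, and in Bhlhe41 the E-box lies 153 to 148 bases before it. None of the motifs searched was found in the Dbp window. The search covered both strands and the measured members with a promoter sequence, without regard to the floor. For the clock list these were 16 of 19 measured, not the same choice as the 16 above the floor. Of them, 5 windows held CACGTG, 31.2% against 6.86% of 27025 genes, in Bhlhe41, Ciart, Cry1, Per1 and Tef. TTATGTAA was found in Per3 (0.977% of all genes) and the cAMP response element TGACGTCA in Hlf (1.77%). Of 17 spermatid windows, chosen in the same way, 0 held any of the 3. A match of letters is a description and not a site.

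The repressors of the loop held most of the higher members, 7 of 9. Per3 read 9.16, 10.86, 8.58 and 9.24, with vehicle overload 1.63 above the nearest array. Nr1d2 read 9.90, 11.52, 9.54 and 10.66 and Nr1d1 12.22, 13.31, 11.79 and 12.01, both highest on vehicle overload. Dbp, an output factor, read 12.71, 14.69, 10.97 and 13.24. Per2 read 7.38 on vehicle overload against 5.41 on vehicle sham, within background. Arntl, which peaks opposite to Dbp in the daily cycle, was lower, at 8.89, 7.95, 10.45 and 8.87. Bhlhe41, another repressor, read 7.61, 8.57, 7.47 and 10.46, highest on GW4869 overload. The sources used here do not give the time of day at which tissue was taken, and the part of time of day in these values was not tested.

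Other genes stood apart on vehicle overload alone. After Acsm3, the widest gaps to the nearest array belonged to Opn3, an opsin, at 9.24, 10.95, 9.23 and 9.21, then Per3 and St6galnac5, a sialyltransferase, at 8.33, 10.49, 8.88 and 8.93. In Opn3 the other 3 arrays lay between 9.21 and 9.24. Rasd1, a Ras-like protein induced by glucocorticoid, read 11.87, 13.34, 11.33 and 11.22, Klhl2, a Kelch protein, 11.62, 13.08, 11.56 and 11.45, and Dgkd, a diacylglycerol kinase, 8.84, 10.24, 8.82 and 8.58. Ces1f, a carboxylesterase, and Fgf10, a growth factor of fat progenitors, differed from sham by 1.93 and 2.07.

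Macrophage and matrix genes were also higher than sham in part, but vehicle overload was seldom the highest array. Macrophage markers had a median difference of 0.65, with 8 of 15 higher and 0 lower. Vehicle sham was the lowest array for 14 of 15, vehicle overload was the highest for 0, and 8 stood at least 1.5-fold below each other array on vehicle sham, against 11.5% of all genes. Lyz2, lysozyme, read 14.37, 15.08, 16.50 and 16.46, and C1qb, a complement subunit, 10.29, 10.94, 12.46 and 12.33. Both vehicle arrays lay below both GW4869 arrays in these genes. Gpnmb of lipid-laden macrophages read 7.66, 9.50, 13.08 and 14.53. In bulk tissue fewer cells of a type, less RNA per cell and a larger share of RNA from tract tissue cannot be told apart. The part of tract RNA on vehicle sham in these values, and in the lysosome, interferon and matrix values below, was not tested.

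With the vehicle overload array left out, vehicle sham was below both GW4869 arrays for 15 of 15 macrophage genes and 18 of 19 lysosome genes, against 52.9% of all genes. Lysosome genes had a median difference of 0.31, with 6 of 19 higher and 1 lower, close to the 30.2% and the median of 0.26 over all genes, while vehicle sham was lowest for 17. Ctss, a cathepsin of antigen-presenting cells, read 10.76, 11.73, 13.06 and 13.55, and Atp6v0d2, a proton pump subunit, 6.55, 8.20, 10.49 and 12.62. Interferon-induced genes had 5 of 11 higher and 0 lower, with vehicle sham lowest for 10. Of the 5, Rsad2, Irf7 and Ifit2 read 6.29, 5.57 and 6.32 on vehicle sham, within background. The others were Bst2, at 7.06, 7.78, 8.46 and 8.87, and Gbp2, at 9.86, 10.52, 11.16 and 11.45. Oasl2 read 8.59, 9.15, 11.53 and 11.67, and its vehicle arrays differed by less than 1.5-fold. Symbol families gave the same order, with vehicle sham lowest for 21 of 23 chemokine genes and 16 of 20 histocompatibility genes.

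Among matrix genes 12 of 25 were higher and 2 lower, the median was 0.54, and vehicle sham was lowest for 17. Lum, the proteoglycan lumican, read 10.47, 12.14, 12.49 and 11.69, Mmp2, a matrix protease, 9.54, 11.13, 11.48 and 10.90, and Col3a1, a fibrillar collagen, 12.73, 13.50, 14.26 and 13.48. For these the GW4869 sham array was highest. Col4a1, a basement membrane collagen, read 7.35, 8.51, 8.10 and 7.86, highest on vehicle overload, whereas Col15a1, of the basement membrane zone, read 9.35, 8.30, 9.09 and 7.65, highest on vehicle sham. Fibroblast and progenitor markers had 5 of 11 higher and 0 lower, and vehicle overload was highest for 0.

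Blood vessel markers were mostly highest on vehicle overload. Of 14 endothelial genes 8 were higher and 0 lower, the median was 0.81, and 12 were highest on vehicle overload, or 5 of 14 with adipocyte centring. Emcn read 9.72, 10.87, 10.20 and 9.76 and Flt1, a receptor for the growth factor encoded by Vegfa, 9.36, 10.39, 9.42 and 9.76. Vwf, the von Willebrand factor, read 7.12, 8.69, 8.53 and 7.15. Of 7 pericyte genes, 4 were higher and 6 were highest on vehicle overload, among them Rgs5 at 11.45, 12.15, 12.02 and 10.96. Neutrophil genes gave little at these levels: S100a8 read 3.44, 5.14, 4.90 and 8.63, so both vehicle readings lie within background.

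Lists of early response and hormone response showed a further arrangement. Immediate early genes had 8 of 18 higher and 2 lower, and vehicle sham was below both GW4869 arrays for 16. Vehicle overload was highest for 2. Nr4a3, an orphan receptor, read 4.99, 5.46, 9.65 and 9.40, and Myc 6.79, 8.44, 9.94 and 9.83. Genes induced by glucocorticoid had 5 of 16 higher and 2 lower, close to the 30.2% and 16.9% of all genes. Vehicle sham was below both GW4869 arrays for 14 of these 16, against 52.9% of all genes. Fkbp5, a chaperone of the glucocorticoid receptor, read 12.84, 13.15, 14.36 and 14.51. Both vehicle readings of Nr4a3 lie within background, so a difference between them may not be measurable. In Fkbp5 the vehicle arrays differed little. For Nr4a3 and Fkbp5 alike, both vehicle arrays lay below both GW4869 arrays.

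Part of the protein folding genes were lower on vehicle overload. In the unfolded protein response list 6 of 16 genes were lower and 2 higher, the median was -0.42, and vehicle overload was the lowest array for 11. Hspa5, the main chaperone of the endoplasmic reticulum, read 17.52, 16.16, 17.12 and 18.55, and Calr, calreticulin, 17.23, 16.18, 16.69 and 17.53. Creld2 read 9.70, 8.35, 8.75 and 9.25. In these 3 genes vehicle overload was lowest, below GW4869 sham as well. For heat shock the median was -0.58, and 6 of 13 genes were lower and 1 higher. Hspa4l, a chaperone abundant in testis, read 12.51, 8.50, 9.20 and 8.99, and Dnajb1 9.89, 7.90, 8.55 and 8.74, both highest on vehicle sham. The higher member was Hspd1, the mitochondrial chaperonin, at 13.07, 14.24, 13.68 and 14.90. Centring on all genes turned the unfolded protein median to 0.06 and left heat shock at -0.10. The median gene then stood at 0.73, against 0.26 as deposited, so both lists lay below it in both settings.

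Cholesterol synthesis genes had 5 of 16 lower and 2 higher, and vehicle sham was highest for 9. Their median of -0.31 turned to 0.16 under all-gene centring, where the median gene moved from 0.26 to 0.73. The list median lay below the median gene in both settings. Fdft1, squalene synthase, read 13.04, 11.93, 11.26 and 11.41, and Sqle 7.01, 4.01, 5.38 and 5.75. The listed ribosomal genes were divided by compartment. Of 18 mitochondrial ribosomal genes 11 were higher and 0 lower, with a median of 0.65, and Mrps5 read 8.44, 9.95, 9.32 and 9.08. Of 17 cytosolic ribosomal genes 1 was higher and 0 lower, the median was -0.036 (0.44 when centred on all genes), and vehicle overload was the lowest array for 11. Over wider families, 27 of 74 mitochondrial and 11 of 70 cytosolic ribosomal genes were higher, against 30.2% of all genes. The family medians were 0.39 and -0.007, against 0.26 over all genes.

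Among the genes lower on vehicle overload outside the tract lists, some were low there alone. Over all genes, 440 (3.76%) were at least 1.5-fold below each other array on vehicle overload. Plac8 read 13.58, 7.49, 13.07 and 11.96, and Fads2, the delta-6 desaturase of polyunsaturated fatty acids, 14.87, 9.89, 14.31 and 15.14. Both were high on the other 3 arrays. Fads1, the partner desaturase, read 11.75, 11.16, 12.01 and 11.71, a far smaller difference. Cdkn1a, the cell cycle inhibitor p21, read 9.97, 7.79, 11.47 and 11.82, and Wars, a tRNA synthetase, 11.80, 9.23, 11.31 and 13.05.

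Several genes of the same ranking are known from epithelium, lymphocytes or smooth muscle. Cd52, a surface protein of lymphocytes and of epididymal epithelium, read 15.58, 7.79, 13.27 and 10.05, Cd24a 9.92, 7.58, 9.75 and 12.76, and Mal 10.71, 6.76, 10.03 and 13.09. Of 11 mesothelial genes, 3 were lower, the keratins Krt18, Krt8 and Krt19, with Krt8 at 8.86, 6.76, 8.09 and 12.08, and Upk1b and Wt1 were higher by 0.76 and 1.03. Cuzd1 had the largest negative difference among genes above background on both vehicle arrays, in no tract list and not 4 log2 units higher on vehicle sham than on each other array. It read 18.09, 7.50, 6.73 and 16.49, high on the 2 arrays with spermatid or proximal epididymis transcripts. Cnn1 and Acta2, contractile proteins of smooth muscle, read 15.23, 6.55, 15.31 and 10.17 and 16.40, 12.97, 16.24 and 14.88.

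Smooth muscle markers were high on both sham arrays, with median levels over the 14 measured of 10.93, 7.57, 11.42 and 8.79. Of the 13 above the floor, a mean that the sham arrays raise, 12 were lower on vehicle overload. The distal epididymis and vas deferens list had the same arrangement, with median levels over all 14 measured of 10.58, 3.74, 9.18 and 5.09. Ptgs2, the inducible cyclooxygenase, read 14.26, 2.52, 14.30 and 6.18. The part of tract tissue in the smooth muscle, keratin, Cd52, Plac8 and Fads2 differences was not tested.

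Tract transcripts held the largest differences of the comparison. Many tract genes passed the floor only through the array on which they are high, so no count over those that passed is given. Prm2 and Prm1, protamines that pack sperm DNA, read 17.92, 5.33, 3.66 and 6.74 and 17.40, 5.13, 4.71 and 7.04. Ldhc, the lactate dehydrogenase of sperm, read 16.82 on vehicle sham and under the floor elsewhere. Defb38, an epididymal defensin, and Wfdc13 read 16.55 and 16.09 on vehicle sham against at most 4.60 and 6.40. Lyar, a nucleolar protein, was unlike the others: at 16.47, 11.90, 11.75 and 11.99 it was clearly measured on every array.

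The other tract lists differed in which arrays were high. Leydig cell steroid enzymes were high on vehicle sham, with Cyp17a1 at 14.49, 3.81, 3.41 and 2.86. Over all 14 measured meiotic genes the median level was 8.37 on vehicle sham and 3.64 on vehicle overload, and over all 20 axoneme genes 8.33 and 4.13. Over all 22 proximal epididymis genes the highest median was that of GW4869 overload, at 5.08, 3.39, 3.79 and 13.04. Of genes at least 1 log2 unit higher on vehicle sham than on each other array, 48 of 922 belong to a tract list, so the lists name a small part of that pattern, which covers 7.88% of all genes. Without the 922 genes, 3537 genes were higher and 1050 lower (77.1% higher); these genes are lower on vehicle overload by their choice, so the higher count could not move.

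The same contrast under GW4869 shares no array with the vehicle contrast. There 1564 genes (13.4%) passed 1.5-fold upward and 1787 (15.3%) downward, and the median gene stood at -0.036. Metabolic lists had medians of the opposite sign: -0.46 for amino acid breakdown with 0 of 20 higher and 8 lower, -0.42 for fatty acid oxidation with 1 of 31 higher and 10 lower, and -0.53 for the citric acid cycle with 0 of 20 higher and 8 lower. The mature adipocyte list also changed sign, from 0.35 under vehicle to -0.41 under GW4869, where 0 of 19 genes were higher and 5 lower. The arrays of both contrasts hold tract transcripts. Over all measured members the spermatid median was 13.90 on vehicle sham and the proximal epididymis median 13.04 on GW4869 overload. The distal epididymis median was 9.18 on GW4869 sham. The parts of tract tissue and of adipocyte RNA content in the metabolic medians and their change of sign were not tested. For endothelial genes the medians were 0.81 under vehicle and -0.52 under GW4869, and for lipolysis genes 0.60 and -0.14. Heat shock and unfolded protein lists had -0.58 and -0.42 under vehicle and 1.22 and 0.47 under GW4869. With 1 array a group the difference between the contrasts could not be tested. The lowest median levels of the amino acid breakdown and citric acid cycle lists, 10.90 and 11.94, were those on GW4869 overload.

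**Figure D5:**
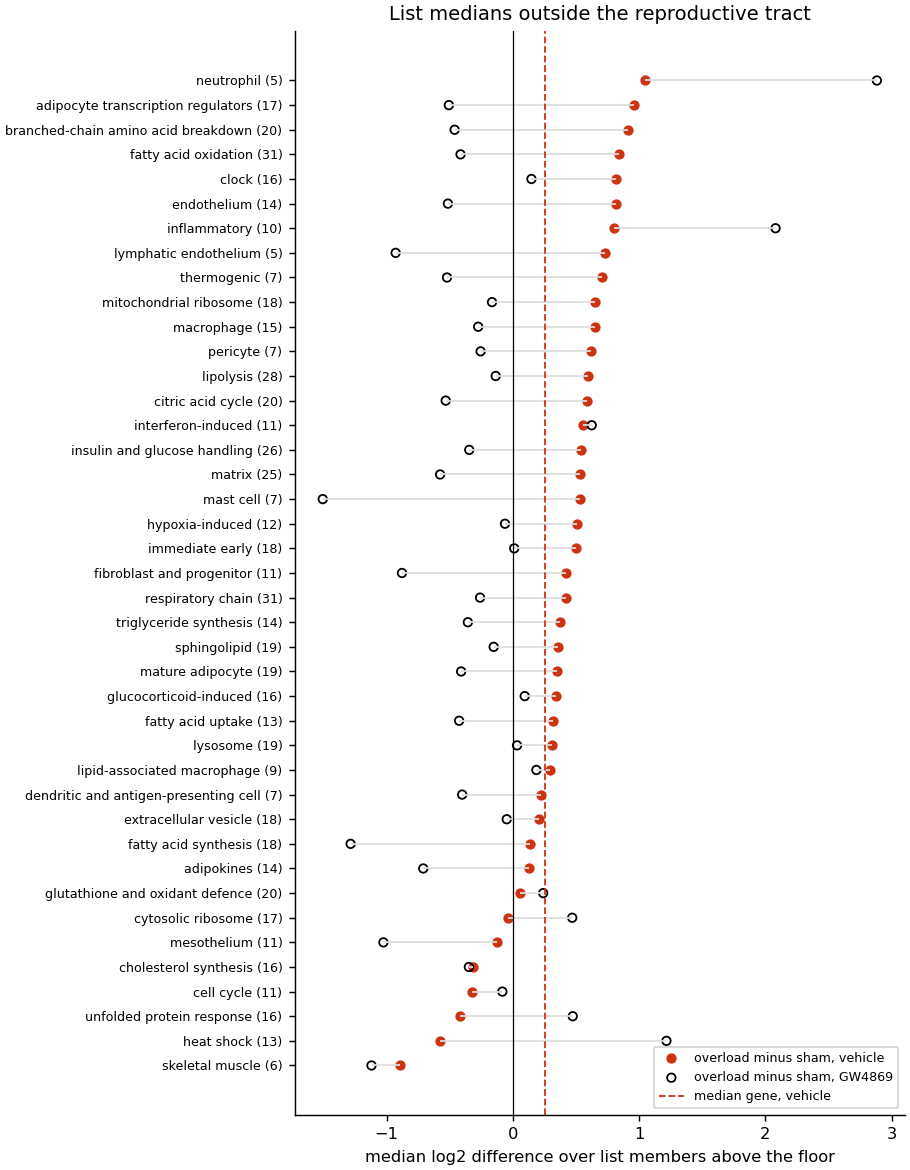
Median log2 difference between overload and sham for each list with at least 5 members above the floor outside the reproductive tract and smooth muscle, under vehicle (filled) and under GW4869 (open), with the number of members in brackets. The dashed line is the median gene under vehicle, 0.26; amino acid breakdown lies at 0.91 under vehicle and -0.46 under GW4869.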

How the data were processed

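RNA from epididymal fat of 4 groups was hybridised to Clariom S Mouse arrays, 1 array per group. Each probe set has a log2 value that the authors computed and deposited; Partek and RMA are the names found in the submitters' processing notes, and the sources used here give no version, setting or build. Gene values reach 19.92, above what a scanner's range usually allows; the step behind this was not identified, so folds hold on the deposited scale only. Having 1 array a group limits precision throughout.

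The table has 28846 rows, of which 19572 are annotated probe sets. Differences, counts past 1.5-fold (log2 0.585), list medians over members above the floor, and array places were computed with Python 3.11.15 and pandas 2.3.3, and the counting was tested on simulated data. Of 899 genes in 55 lists, 819 were measured and the others were not analysed here. Members and lists were chosen with earlier results of these data known. Samples were grouped by their titles. Alternatives covered scaling, floor, fold limit, choice of probe set and tract genes.

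The genes named were the 12 highest and 12 lowest differences outside the tract among genes above background on both vehicle arrays and not 4 log2 units higher on vehicle sham than on each other array; the 12 widest gaps of vehicle overload to the nearest array on each side; up to 5 members a side of each list; the 6 highest on vehicle sham among genes 4 log2 units above each other array there; and 14 set by name. Predicted genes, olfactory, vomeronasal and taste receptors and urinary proteins were left out. Further list members were named after their values were seen, for their role: Acadl, Adcy3, Adcy5, Bckdk, Bhlhe41, C1qb, Cebpd, Col3a1, Cpt1a, Decr1, Lyz2, Mccc2, Mki67, Nr4a3, Oasl2, Pccb, Pde3b, Plin1, Ppara, Pparg, Prkar2b, Ptger3, Smpd3 and Ucp1.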

Additional observations from a re-analysis of the deposited data

Results flagged for a closer look

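Lists whose medians passed 1.5-fold in opposite directions under vehicle and under GW4869 are given with both values; with 1 array a group these differences were not tested. Lymphatic endothelium genes (5 above the floor) had 0.73 under vehicle and -0.93 under GW4869, and vehicle sham was below both GW4869 arrays for 5 of 5. The tract medians that follow are over members above the floor, which many passed only through the array on which they are high. Spermatid genes had -10.66 and 0.90, and their median level lay under the floor on both GW4869 arrays. Proximal epididymis genes had -1.78 and 9.08, and seminal vesicle and prostate genes -1.40 and 3.54, both high on GW4869 overload. Among the 2615 transcript clusters without a gene symbol, which enter no comparison above, 1338 lay above the floor and 51 stood at least 1.5-fold higher on vehicle overload than on each other array.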

How the results depend on the processing

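Genes higher on overload numbered 6814 with all-gene centring, 2475 with adipocyte centring, 4745 after quantile normalization, 1822 after trend removal, 5311 with no floor and 1394 at 2-fold, against 3537 as reported. Lower genes numbered 3259 with no floor, 1140 with the antigenomic floor, 1050 without genes 1 log2 unit higher on vehicle sham and 2409 with adipocyte centring, against 1972. The median gene was 0.73 with all-gene centring and -0.035 after trend removal. With adipocyte centring vehicle overload was highest for 12 oxidation, 11 citric acid cycle, 3 respiratory chain and 5 endothelial genes and for 694 of all genes, and vehicle sham lowest for 3403. With no floor these all-gene counts were 6159 and 8084. Medians that passed 1.5-fold changed sign for lymphatic endothelium (-0.026 with no floor and with the antigenomic floor), Schwann cell (0.73 with no floor), Leydig cell (0.48 with the antigenomic floor and without genes high on vehicle sham), and, without those genes, spermatocyte (0.37), Sertoli cell (0.44) and axoneme lists (0.11). These steps change which members are counted. Of the list medians under alternatives, 448 kept their sign and side of 1.5-fold, 84 moved and 8 reversed. The places of arrays and the median gene, and the counts with an array left out, were added after seeing the data. No paired analysis was possible because each group holds 1 array, and no array could be left out of a difference. Readings under log2 6.40 limit what low genes can show.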

Other observations

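Inflammatory genes had a median difference of 0.80 between vehicle overload and vehicle sham, with 6 of 10 above the floor higher and 2 lower, and vehicle overload was the highest array for 0. Sphingolipid genes had 5 of 19 higher and 3 lower, with a median of 0.36. For this and the lists that follow, the shares over all genes were 30.2% higher and 16.9% lower, with a median of 0.26. Acer2, an alkaline ceramidase, read 7.54 on vehicle sham and 9.28 on vehicle overload, and 8.55 and 8.42 on the sham and overload arrays of GW4869, the order used for the genes that follow. In that order Saa3, an acute phase protein, read 7.55, 8.53, 9.90 and 12.06, and Ccl2, a monocyte chemokine, 5.11, 6.34, 7.33 and 10.94, where both vehicle readings lie within background. Sgms2, a sphingomyelin synthase, read 9.65, 6.69, 8.44 and 8.81, and Smpd3, a neutral sphingomyelinase, the class of enzyme that GW4869 is known to inhibit, 7.70, 8.09, 9.23 and 7.94. Genes of vesicle release had 3 of 18 higher and 0 lower, a median of 0.21, and vehicle sham below both GW4869 arrays for 14. Hypoxia-induced genes had 6 of 12 higher and 1 lower, with a median of 0.51. Adm, adrenomedullin, read 7.25, 8.73, 9.11 and 10.21.

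Cell cycle genes had 3 of 11 higher and 5 lower. Ccnb2, a mitotic cyclin that germ cells also express, read 10.51, 5.72, 6.19 and 5.77, high on vehicle sham, whereas Mki67, a proliferation marker, read 6.49, 6.40, 7.72 and 7.11. Without genes high on vehicle sham the cell cycle median was 0.19, and with all-gene centring 0.15, against -0.33 as deposited. The median gene under these settings stood at 0.32 and 0.73, against 0.26 as deposited. Oxidant defence genes had 2 of 20 higher and 3 lower, and Gstm2 read 14.92, 13.51, 14.20 and 14.11. Mast cell genes had 3 of 7 higher and 1 lower, with the protease Cpa3 at 9.47, 10.65, 11.29 and 9.61. Cyp2e1, an abundant P450 of liver that fat also expresses, read 17.99, 19.17, 18.85 and 18.56.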
